A study of Mus musculus with 4 samples.

Results

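The genes described here are 46 interferon-stimulated genes, chosen by name as a set of well-known targets of interferon signalling, in long-term and short-term haematopoietic stem cells (LT-HSC and ST-HSC) of mouse bone marrow. A gene was read from the probe set annotated to its symbol alone, and where there were several, from the one brightest on average over the 4 arrays. By this rule 43 of the 46 genes had a value, out of 18193 genes with such a probe set in the whole series. Oas1g and Ifi44 had no probe set of their own in the annotation used, and the probe set of Isg15 also carries the symbol of another gene, so these 3 were not analysed here beyond a value for the shared Isg15 probe set. Of the 43 genes, 41 lay above the filter on dim probe sets and could be tested, while Mx2 and Cxcl10 did not.

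Each group was measured on 2 Affymetrix expression arrays. All mice were controls (background C57BL/6, spelled C57B/6 for 3 of the samples) with no Mx-Cre, the transgene that interferon switches on. Poly(I:C), a double-stranded RNA made by synthesis, was injected 7 times into every mouse, so that no group without poly(I:C) stands beside them. LT-HSC (lineage-negative, cKit+, Sca1+, CD34-, CD135-) replicates 1 and 2 and ST-HSC (the same gate but CD34+) replicate 2 came from mice aged 7.5 weeks, taken 4 weeks after the last injection. ST-HSC replicate 3 came from mice aged 8.5 weeks, taken 3 weeks after it. For both ST-HSC samples the tissue label names LT-HSC next to a CD34+ gate, and the titles were followed. The labels leave unsaid whether replicates are different animals, so p-values may measure technical spread only.

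Interferons are secreted proteins that cells release when they sense viral nucleic acid, and poly(I:C) mimics such a signal. Type I interferon binds the receptor IFNAR1/IFNAR2, whose kinases JAK1 and TYK2 activate STAT proteins, STAT2 among them. With IRF9 these form a complex that binds the interferon-stimulated response element (ISRE) in the promoters of target genes, while interferon gamma acts through the gamma-activated site (GAS). In the marrow, interferon is known to drive quiescent stem cells transiently into cycle.

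The arrays were checked against their gates. Cd34, the marker that separated them, had normalised intensities of 23.9 and 20.5 on the LT-HSC arrays against 906 and 1171 on the ST-HSC arrays. Markers that the 2 gates share differed too. Kit read 405 and 383 against 723 and 919 and passed as higher in ST-HSC (-1.02, SE 0.26, adjusted p = 0.0498 in limma). Flt3, the gene of CD135, read 74.8 and 48.5 against 242 and 136 and did not pass (-1.37, SE 0.38, adjusted p = 0.0631). The groups overlapped for Slamf1, Procr, Mecom and Hlf. Both LT-HSC arrays also carried RNA of plasma cells, a type the lineage gate should take out: 7 of 7 plasma cell markers passed the test and were higher in LT-HSC. Their summed normalised intensity was 41072 and 41093 on the LT-HSC arrays and 1749 and 2882 on the ST-HSC arrays. On ST-HSC replicate 3 the summed intensity of 8 granulocyte markers was 53258, compared with 3625 for replicate 2 of ST-HSC and with 3718 and 484 for the LT-HSC pair. Erythroid markers summed to 2577 on the same array, compared with 185 for replicate 2 and with 319 and 720 for the LT-HSC pair. All 5 platelet markers were higher on both ST-HSC arrays (summed 3489 and 1889, compared with 826 and 1212), and 1 of them, Gp9, passed. B cell markers summed to 4379.75 and 5000.25 for the LT-HSC pair and 285 and 549 for the ST-HSC pair, and macrophage and dendritic cell markers to 7673 and 9057 and to 1719.9 and 1448. Cd74 (4905 and 6152 for the LT-HSC pair) and H2-Aa (1607 and 2104), which B cells also express, made up most of the latter list's sum in LT-HSC. Both passed as higher in LT-HSC, as did Cd68 (159 and 210 against 57.0 and 54.6, adjusted p = 0.0299 in limma). Csf1r and Adgre1 lay at 0.94 and 0.38 (LT-HSC minus ST-HSC, log2) and did not pass. Itgax, Siglech and C1qa lay at -0.14, -0.05 and -1.28, and C1qa was listed at 0 on an array. Of 7 B cell markers tested, 4 passed, all higher in LT-HSC. Vpreb1 lay at -0.60, and the groups overlapped for it and for Pax5. T and NK cell markers differed both ways. Of 5 tested, 3 passed as higher in LT-HSC (Cd3g 1.90, Gzma 2.33 and Klrd1 2.39). Nkg7 passed as higher in ST-HSC (-2.63), at 1412 and 1468 against 153 and 313 in LT-HSC. In mixed RNA, more cells of a type and more RNA per cell cannot be told apart, and the part of these cells in the values below was not tested. No plasma cell, B cell or granulocyte marker was listed at 0 on an array.

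The sequence elements through which interferon acts were looked for in RefSeq promoter windows (assembly GRCm38.p6), each of 300 bases, from 250 before to 50 after an annotated start. Windows were held for 36 of the 46 genes. The core of the ISRE, GAAA repeated after a spacer of any 2 bases and read on both strands (TTTC repeated in the same way on the opposite strand), lay in a window of 19 of these 36 genes (52.8%), against 3.99% of all 27025 genes with a window. TTCNNNGAA, the core of the GAS, which reads the same on both strands, lay in 9 of the 36 (25%), against 9.55% of all genes. Matches may overlap each other, and a match describes letters, not binding. Shown in full are the windows of a gene that was higher in ST-HSC (Oas1a, at chr5:120907476-120907775 on the minus strand), of a classical target that did not pass (Ifit1, at chr19:34640639-34640938 on the plus strand) and of a gene that was higher in LT-HSC and has no ISRE core (Samhd1, at chr2:157135047-157135346 on the minus strand). Capitals mark the ISRE core in Oas1a and Ifit1 and the GAS core in Samhd1.
Oas1a: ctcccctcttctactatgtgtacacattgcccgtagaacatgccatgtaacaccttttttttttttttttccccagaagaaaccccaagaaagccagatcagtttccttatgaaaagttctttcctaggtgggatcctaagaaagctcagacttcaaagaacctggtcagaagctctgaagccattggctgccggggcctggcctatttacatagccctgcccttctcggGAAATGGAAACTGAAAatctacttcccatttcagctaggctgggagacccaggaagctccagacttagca
Ifit1: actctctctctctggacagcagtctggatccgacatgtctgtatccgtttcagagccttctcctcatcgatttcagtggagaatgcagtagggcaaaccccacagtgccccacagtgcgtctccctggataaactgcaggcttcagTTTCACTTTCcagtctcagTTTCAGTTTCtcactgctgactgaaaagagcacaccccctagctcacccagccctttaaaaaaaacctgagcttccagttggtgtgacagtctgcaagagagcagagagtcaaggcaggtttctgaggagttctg
Samhd1: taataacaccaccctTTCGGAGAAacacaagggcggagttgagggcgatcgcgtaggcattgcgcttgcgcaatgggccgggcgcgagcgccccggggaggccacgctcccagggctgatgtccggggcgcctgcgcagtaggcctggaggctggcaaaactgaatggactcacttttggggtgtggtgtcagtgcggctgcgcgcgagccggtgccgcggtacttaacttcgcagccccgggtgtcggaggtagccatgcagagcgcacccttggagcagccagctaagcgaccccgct
In Oas1a the capitals are 2 overlapping matches, and in Ifit1 they are 2 separate ones.

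Stretches of 30 bases around the core follow for 8 further members of different function, with the core in capitals. The cores are alike because the search required it.
Ifit3, chr19:34583363-34583392 (plus strand): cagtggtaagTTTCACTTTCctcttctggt
Ifitm2, chr7:140955988-140956017 (minus strand): ccaccaacagGAAAAGGAAAttgctagaga
Oas3, chr5:120777715-120777744 (minus strand): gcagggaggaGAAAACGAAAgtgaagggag
Rsad2, chr12:26456553-26456582 (minus strand): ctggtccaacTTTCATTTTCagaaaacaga
Gbp2, chr3:142620594-142620623 (plus strand): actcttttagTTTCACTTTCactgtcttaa
Igtp, chr11:58199512-58199541 (plus strand): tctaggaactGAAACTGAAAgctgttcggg
Stat2, chr10:128270266-128270295 (plus strand): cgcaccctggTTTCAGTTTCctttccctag
Cxcl10, chr5:92349083-92349112 (minus strand): tcacgctttgGAAAGTGAAActtacctcac
Ifitm2, which was higher in ST-HSC, and Igtp, which did not pass, both hold the core just before the start. Among tested members with a window, 16 held the ISRE core and 16 did not. The 16 with the core had a median LT-HSC minus ST-HSC difference of 0.15 on the log2 scale, from -1.51 to 0.78, with 2 calls, both higher in ST-HSC. The 16 without it had a median of -0.29, from -1.76 to 2.24, with 2 calls in favour of LT-HSC and 1 of ST-HSC. Over all genes tested, 14.3% were called in either direction. A further 9 tested members had no window, Gbp6 among them. The difference between the sets with and without the core was not tested.

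Between LT-HSC and ST-HSC the interferon-stimulated genes did not move one way. In limma, with p-values adjusted over all 27022 probe sets tested and a threshold of 0.05, 3 of 41 were higher in LT-HSC (Isg20, Gbp6 and Samhd1) and 3 were higher in ST-HSC (Ifit2, Ifitm2 and Oas1a). These shares of 7.32% each lie near those of all 12832 genes tested, of which 7.92% had the higher value in LT-HSC and 6.41% in ST-HSC (14.3% in either direction). The median difference was 0.10 over the 41 genes and -0.08 over all genes, and the median size of the difference regardless of sign was 0.49 and 0.53. Differences are LT-HSC minus ST-HSC on the scale of log2(intensity + 16) after quantile normalization, which understates the fold of dim genes. With the arrays centred on their medians instead, the calls were 6 higher in LT-HSC and 3 in ST-HSC, the added genes being Ly6e, Irf1 and Slfn2. Over all 12827 genes tested in that setting they were 1176 and 973. With no normalization between the arrays they were 5 and 3, and 993 and 881 of all 12827 genes. Both LT-HSC arrays lay above both ST-HSC arrays for 13 of 41 members (28.6% of all genes) and below them for 16 (35.7% of all genes).

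**Figure D1:**
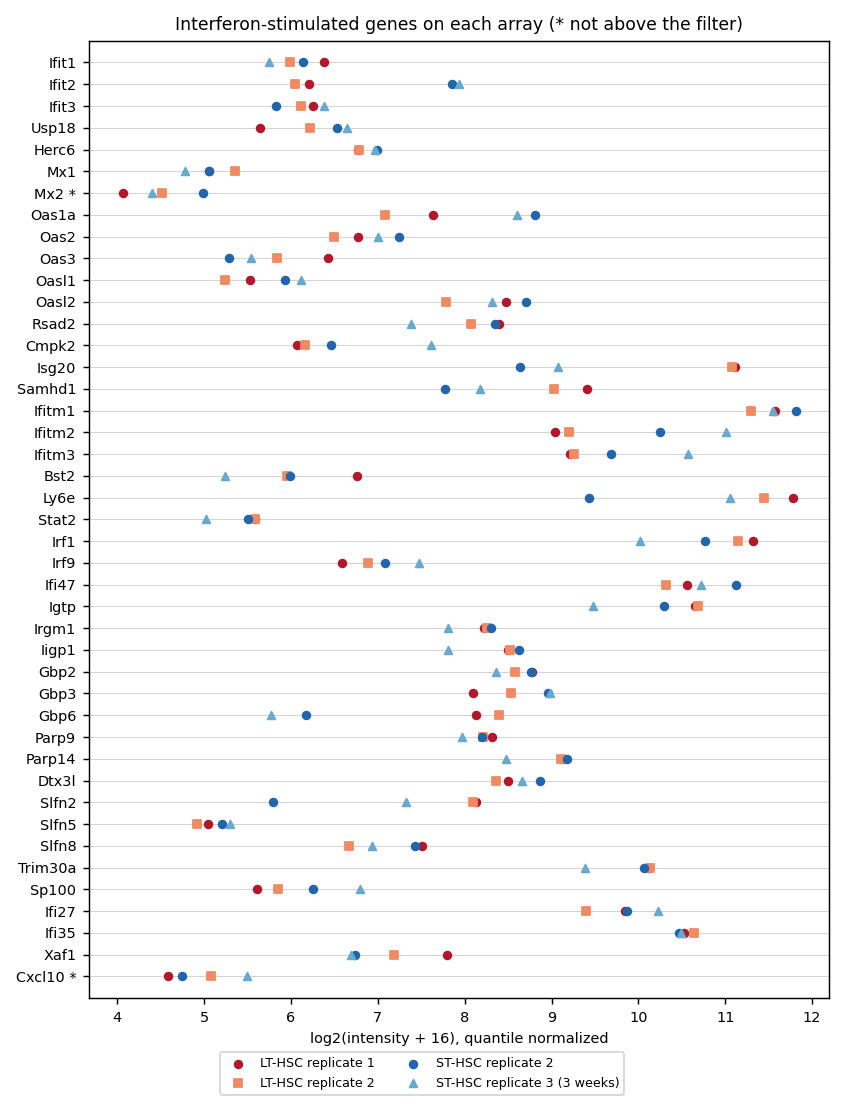
Quantile-normalised log2(intensity + 16) of the 43 interferon-stimulated genes (rows) on each of the 4 arrays (symbols). Levels compare within a row only, since probe sets differ in brightness. The LT-HSC symbols of Isg20 and Gbp6 sit to the right of both ST-HSC symbols, and those of Ifit2 and Ifitm2 to the left.

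**Figure D2:**
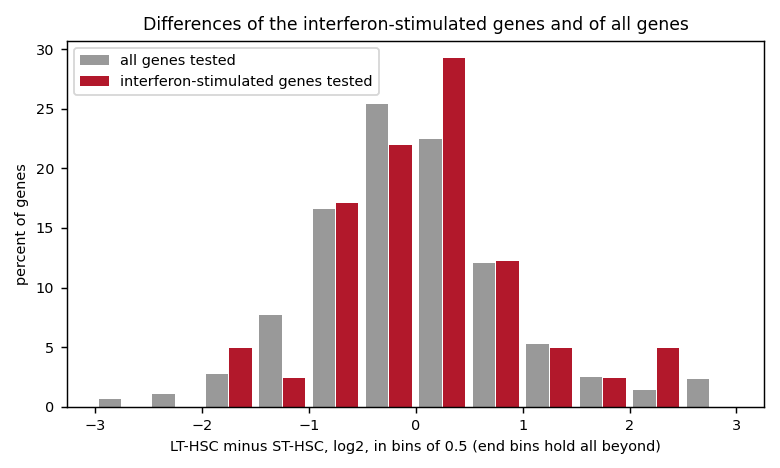
Percent of genes (vertical axis) in bins of the LT-HSC minus ST-HSC difference (log2, horizontal axis) for all 12832 genes tested and for the 41 interferon-stimulated genes tested. The end bins also hold the genes beyond them. Both sets are centred near 0, and 29.3% of the members lie between 0 and 0.5 against 22.5% of all genes.

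The calls depended on which array was left out. Without LT-HSC replicate 1 or without LT-HSC replicate 2, limma called 0 members in either direction, with 5 and 6 members at an unadjusted p under 0.05. Without ST-HSC replicate 2 it called 11 towards LT-HSC and 7 towards ST-HSC, and without ST-HSC replicate 3 it called 7 and 5. In these comparisons the lone array of a group is assumed to vary like the pair that is left. Over all genes the calls in both directions also fell when an LT-HSC array was dropped. They rose when an ST-HSC array was dropped, so this dependence is not particular to the members. The median gap between the arrays of a pair was 0.24 in LT-HSC and 0.40 in ST-HSC over the members, and 0.23 and 0.37 over all genes.

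**Figure D3:**
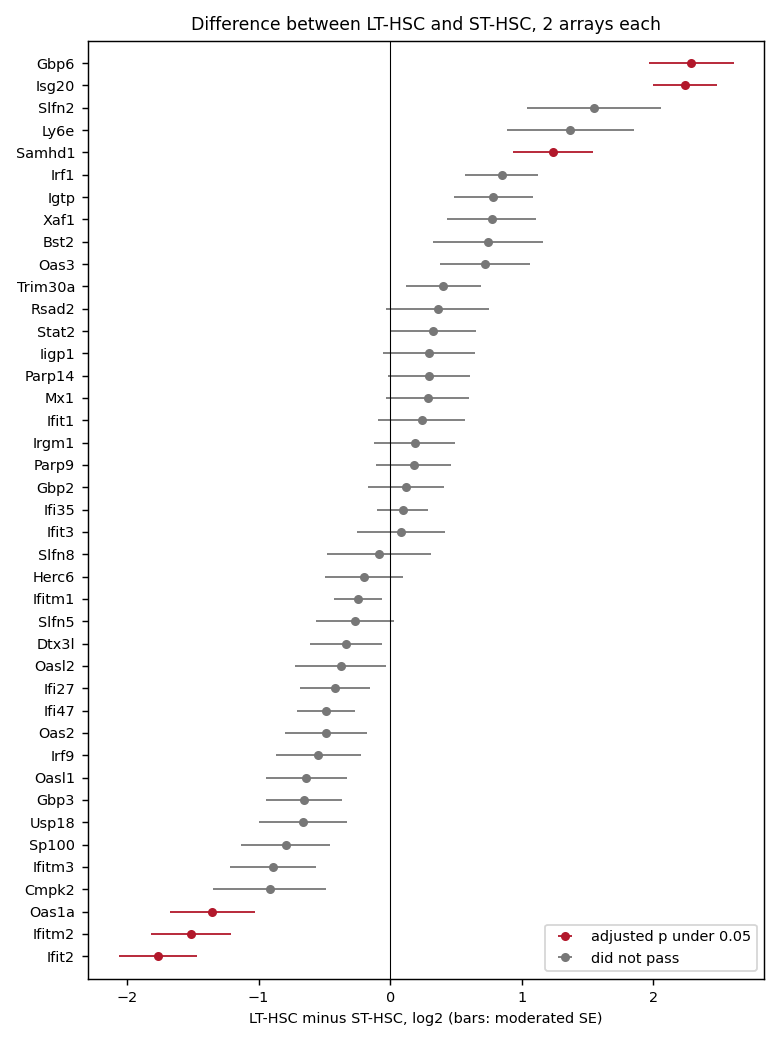
LT-HSC minus ST-HSC difference (log2, horizontal axis) of the 41 tested interferon-stimulated genes, with the moderated standard error as bars. The 6 genes past an adjusted p of 0.05 are red, from Gbp6 (2.29) at the top to Ifit2 (-1.76) at the bottom.

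Of the 3 IFIT genes, 1 passed. Ifit2 had normalised intensities of 58.0 and 50.03 on the LT-HSC arrays (replicates 1 and 2, the order used throughout) and 215 and 228.5 on the ST-HSC arrays (replicates 2 and 3). The ST-HSC arrays were both high and close to each other. The log2 means were 6.13 ± 0.12 (SD, n = 2) and 7.89 ± 0.06 (SD, n = 2), a 3.40-fold higher value in ST-HSC (difference -1.76, SE 0.30, adjusted p = 0.0154 in limma). Its neighbours in the same gene cluster did not pass. Ifit1 read 67.3 and 47.3 on the LT-HSC arrays against 54.3 and 37.7 on the ST-HSC arrays (difference 0.24, SE 0.33, adjusted p = 0.661 in limma), and Ifit3 read 60.4 and 53.4 against 40.6 and 67.6 (0.08, SE 0.33, adjusted p = 0.889). The groups overlapped for both. Ifit1 and Ifit3 hold 2 ISRE cores each in their windows, and the 2 windows of Ifit2 hold 0. Both windows of Ifit2 lie at the upstream end of its annotated span, 34550550 to 34576534 on chromosome 19. Bases further downstream were not searched, so a core there would be missed.

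The ISG15 system attaches a ubiquitin-like protein to other proteins, with Herc6 as its ligase in mouse cells and Usp18 as the protease that removes it and that also damps the type I receptor. Neither gene passed. Usp18 read 33.8 and 58.3 on the LT-HSC arrays against 76.1 and 84.4 on the ST-HSC arrays (difference -0.66, SE 0.34, adjusted p = 0.234 in limma), with both ST-HSC arrays above. Herc6 read 93.3 and 94.0 against 111 and 109 (-0.20, SE 0.30, adjusted p = 0.683). The probe set shared by Isg15 and Gm9706 had deposited intensities of 134 and 225 on the LT-HSC arrays and 190 and 50.9 on the ST-HSC arrays. It differed by 0.82 (SE 0.51, adjusted p = 0.321 in limma) and was lowest on ST-HSC replicate 3.

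Mx1 and Mx2 encode dynamin-like GTPases that block viruses, and the Mx1 allele of C57BL/6 mice is known to be defective. The Mx1 promoter is also the one that drives Mx-Cre, which these mice lack. Mx1 read 17.2 and 24.8 on the LT-HSC arrays and 17.3 and 11.4 on the ST-HSC arrays (difference 0.28, SE 0.32, adjusted p = 0.581 in limma). Mx2 did not pass the filter, at 0.703 and 6.78 on the LT-HSC arrays and 15.8 and 5.16 on the ST-HSC arrays. All these values lie near the pseudocount of 16, where folds are compressed.

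The OAS family makes 2′-5′ oligoadenylates that switch on RNase L, which degrades RNA. Of 5 tested members 1 passed and 4 of 5 had a difference below 0 (54.1% of all genes). Oas1a read 182 and 119.6 on the LT-HSC arrays and 432 and 374 on the ST-HSC arrays, so the arrays of each group stood apart. It was 2.55-fold higher in ST-HSC (log2 means 7.36 ± 0.39 against 8.71 ± 0.14, SD, n = 2 each; difference -1.35, SE 0.32, adjusted p = 0.0414 in limma). The call was lost with no filter on dim probe sets (adjusted p = 0.0526). Oas1a has close copies beside it in the mouse genome, among them Oas1g, whose window holds the same core, and whether its probe set also reads them was not tested. Oas2 (-0.49, SE 0.31), Oasl1 (-0.64, SE 0.31) and Oasl2 (-0.38, SE 0.35) did not pass. Oas3 was the exception in sign, with 70.0 and 41.1 on the LT-HSC arrays against 23.1 and 30.4 on the ST-HSC arrays (0.72, SE 0.34, adjusted p = 0.209 in limma).

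Among enzymes that act on nucleotides and nucleic acids, Isg20 and Samhd1 were higher in LT-HSC. Isg20, an exonuclease that degrades single-stranded RNA, read 2196 and 2140.3 on the LT-HSC arrays and 381 and 522 on the ST-HSC arrays. It was 4.73-fold higher in LT-HSC (11.09 ± 0.03 against 8.85 ± 0.31, SD, n = 2 each; difference 2.24, SE 0.24, adjusted p = 0.00339 in limma), and it passed under all 12 alternatives that kept the 4 arrays. Samhd1, which depletes the deoxynucleotides that viruses need, read 662 and 506 on the LT-HSC arrays and 203 and 274 on the ST-HSC arrays. The groups stood apart, with a 2.36-fold higher value in LT-HSC (difference 1.24, SE 0.30, adjusted p = 0.0449 in limma). Of the 5 probe sets of Samhd1 3 passed, all higher in LT-HSC, one of the others at 1.99. Its call was lost with no filter (adjusted p = 0.0565) and with no intensity trend in the spread model. Plasma cell markers moved with both genes: Sdc1 read 5177 and 5206 on the LT-HSC arrays against 99.3 and 106 on the ST-HSC arrays, and Irf4 read 1689 and 1973 against 22.9 and 17.6. Their part in the difference was not tested.

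The neighbouring genes Rsad2 (viperin, which makes a chain-terminating nucleotide) and Cmpk2 (a mitochondrial nucleotide kinase) did not pass. Rsad2 read 319.8 and 253 on the LT-HSC arrays and 309.9 and 151 on the ST-HSC arrays, and ST-HSC replicate 3 was the lowest of the 4. Cmpk2 read 51.4 and 55.8 on the LT-HSC arrays and 71.9 and 180.3 on the ST-HSC arrays (difference -0.92, SE 0.43, adjusted p = 0.205 in limma). A second, dimmer probe set of Cmpk2 passed in the opposite direction (1.75, SE 0.30, adjusted p = 0.0154), with deposited intensities of 90.5 and 110 on the LT-HSC arrays against 23.2 and 19.7 on the ST-HSC arrays. The direction of Cmpk2 therefore depends on the probe set.

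Of the 5 genes whose products hinder viruses at membranes, Ifitm2 passed. The IFITM proteins stop viral fusion with the cell. Ifitm2 read 511 and 572 on the LT-HSC arrays and 1203 and 2051 on the ST-HSC arrays, a 2.85-fold higher value in ST-HSC (9.12 ± 0.11 against 10.63 ± 0.54, SD, n = 2 each; difference -1.51, SE 0.30, adjusted p = 0.0253 in limma). Ifitm3 read 579 and 595 against 807 and 1500.5 (-0.89, SE 0.33, adjusted p = 0.124), again with both ST-HSC arrays above and replicate 3 the highest. Ifitm1 was bright on every array, at 3033 and 2504 on the LT-HSC arrays and 3579 and 2991 on the ST-HSC arrays, and the groups overlapped (-0.25, SE 0.18, adjusted p = 0.401 in limma). Granulocyte markers were also highest on ST-HSC replicate 3, with S100a8 at 12296 against 1288 on replicate 2. Without that array, and so with a single ST-HSC array, the difference was -1.13 for Ifitm2 and -0.45 for Ifitm3. Without ST-HSC replicate 2 instead, it was -1.89 and -1.33. The part of granulocyte RNA in these values was not tested.

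Ly6e, a lipid-anchored surface protein that limits coronavirus entry, read 3514 and 2772 on the LT-HSC arrays and 675 and 2119 on the ST-HSC arrays. Both LT-HSC arrays were above, but the ST-HSC arrays lay 3.09-fold apart, and the difference of 1.37 (SE 0.48) did not pass (adjusted p = 0.112 in limma). A second probe set of Ly6e did pass (1.67, SE 0.35, adjusted p = 0.0302). Bst2 (tetherin, which holds budding virions on the cell) read 92.2 and 46.2 on the LT-HSC arrays and 47.7 and 21.8 on the ST-HSC arrays (0.74, SE 0.42, adjusted p = 0.278 in limma), and the groups overlapped.

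None of the 3 transcription factors among the members passed (0 of 3; 1 had an unadjusted p under 0.05 in limma). Irf1, which responds to both interferon types, read 2542 and 2257 on the LT-HSC arrays and 1723 and 1018 on the ST-HSC arrays, with both LT-HSC arrays above (difference 0.85, SE 0.27, adjusted p = 0.0912 in limma). Stat2 read 32.0 and 32.1 on the LT-HSC arrays and 29.3 and 16.4 on the ST-HSC arrays (0.33, SE 0.32, adjusted p = 0.532). Irf9, its partner on the ISRE, read 80.1 and 102 against 119.9 and 162 (-0.55, SE 0.32, adjusted p = 0.299), so that these partners had differences of opposite sign and neither passed.

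The interferon-inducible GTPases attack the vacuoles of intracellular pathogens and respond strongly to interferon gamma. Of 7 tested, Gbp6 passed. It read 263 and 319.6 on the LT-HSC arrays and 56.1 and 38.5 on the ST-HSC arrays, 4.89-fold higher in LT-HSC (8.26 ± 0.19 against 5.97 ± 0.29, SD, n = 2 each; difference 2.29, SE 0.32, adjusted p = 0.00823 in limma). It passed under all 12 alternatives that kept the 4 arrays, and its second probe set had a difference of 0.94 (adjusted p = 0.0977). Gbp3 read 257 and 355 on the LT-HSC arrays against 482 and 489 on the ST-HSC arrays (-0.66, SE 0.29, adjusted p = 0.179 in limma). Gbp2 read 423 and 367 against 417 and 311, and its second probe set had a difference of the opposite sign (-1.11, adjusted p = 0.0586). The immunity-related GTPases Igtp (0.78, SE 0.30, adjusted p = 0.135), Irgm1 (0.19, SE 0.31) and Iigp1 (0.30, SE 0.35) lay above 0 and Ifi47 (-0.49, SE 0.22, adjusted p = 0.194) below, and none of the 4 passed in limma (0 calls, 1 at an unadjusted p under 0.05). Iigp1 read 347 and 352 on the LT-HSC arrays and 379.6 and 208 on the ST-HSC arrays, so that on this probe set ST-HSC replicate 3 alone lay below the LT-HSC pair. On its second probe set both ST-HSC arrays did, at deposited intensities of 213 and 177 against 352 and 347. That difference was 0.87 (SE 0.28, adjusted p = 0.0909 in limma). Igtp read 1596 and 1631 on the LT-HSC arrays and 1244 and 695 on the ST-HSC arrays. Ifi47 read 1489 and 1261 against 2217 and 1675.

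No further member passed with 4 arrays. Parp9 and Dtx3l, which form a complex of an ADP-ribosyltransferase and a ubiquitin ligase, read 302 and 279 against 278 and 234, and 345 and 313 against 452 and 387 (Dtx3l -0.33, SE 0.27, adjusted p = 0.449 in limma). Parp14 read 545 and 538 on the LT-HSC arrays and 563 and 341 on the ST-HSC arrays. Of the Schlafen genes, which restrain growth of lymphoid and myeloid cells, Slfn2 read 264 and 258 on the LT-HSC arrays and 39.5 and 145 on the ST-HSC arrays. It did not pass (1.55, SE 0.51, adjusted p = 0.0935 in limma), its ST-HSC arrays being 2.89-fold apart. Slfn5 (-0.27, SE 0.30) and Slfn8 (-0.09, SE 0.39) did not pass. Trim30a, a ubiquitin ligase gene, read 1100.5 and 1108 on the LT-HSC arrays and 1059 and 652 on the ST-HSC arrays. Sp100, a protein of nuclear bodies, read 32.8 and 41.9 against 60.3 and 95.4 (-0.79, SE 0.34, adjusted p = 0.167 in limma). Xaf1, a pro-apoptotic gene, read 206 and 129 against 90.7 and 87.1 (0.77, SE 0.34, adjusted p = 0.177), and its second probe set lay at -1.04. Ifi27, which encodes a small mitochondrial protein, read 906 and 659 against 915 and 1182 (-0.42, SE 0.27, adjusted p = 0.334 in limma), with both ST-HSC arrays above after normalization but not in the deposited intensities (963 and 664 against 850 and 1150). Ifi35 (0.10, SE 0.19) did not pass. The chemokine gene Cxcl10 was not above the filter, at 7.99 and 17.7 on the LT-HSC arrays and 10.8 and 29.2 on the ST-HSC arrays.

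The time since the last injection differed only within ST-HSC, between replicate 3 at 3 weeks and replicate 2 at 4 weeks, and age and array differ with it, so these cannot be told apart. With 1 array each there is no test. Over the 41 members the 3-week array was lower for 23 and higher for 18 (47.4% and 52.6% of all genes). The median gap was -0.20 on the log2 scale against 0.03 over all genes. Past 2-fold, 3 members were higher at 3 weeks (5.05% of all genes) and 0 were lower (5.46% of all genes). The 3 were Ly6e (3.09-fold), Slfn2 (2.89-fold) and Cmpk2 (2.23-fold), and Ifitm3 and Ifitm2 lay 1.84- and 1.70-fold higher. The second probe sets of Ly6e (-0.81) and Cmpk2 (-0.14) lay lower at 3 weeks, on the log2 scale. Of the interferon-inducible GTPases 6 of 7 were lower at 3 weeks (47.4% of all genes), among them Igtp and Iigp1 (both 1.77-fold lower). On second probe sets the gap was -0.12 for Iigp1, 0.27 for Gbp2 and 0.03 for Gbp6, on the log2 scale. Irf1 was 1.68-fold lower, Trim30a 1.61-fold, Parp14 1.62-fold and Rsad2 1.95-fold. Dimmer probe sets of Rsad2 (0.85) and Parp14 (0.20) lay higher at 3 weeks on the log2 scale, while another of Rsad2 lay lower (-1.51). Ifit2, at 215 and 228.5, and Gbp3, at 482 and 489, were nearly level between the 2 arrays.

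The arrays of LT-HSC, whose labels are alike, give the scale of such gaps. Over the members their median gap was -0.12 (replicate 2 minus replicate 1), and 25 of 41 were lower on replicate 2 (48.3% of all genes). Past 2-fold lay 0 members in either direction, where 1.82% of all genes were higher and 3.05% lower on replicate 2. The members with the widest gap there were Slfn8 (-0.84), Bst2 (-0.80) and Oasl2 (-0.70). Igtp, Iigp1, Irgm1, Parp14, Trim30a and Slfn2 differed between the LT-HSC arrays by at most 0.03 in size. Ly6e (-0.34), Rsad2 (-0.32), Irf1 (-0.17) and Cmpk2 (0.09) differed by more. Over all genes the median size of the gap was also wider in ST-HSC (0.37) than in LT-HSC (0.23).

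**Figure D4:**
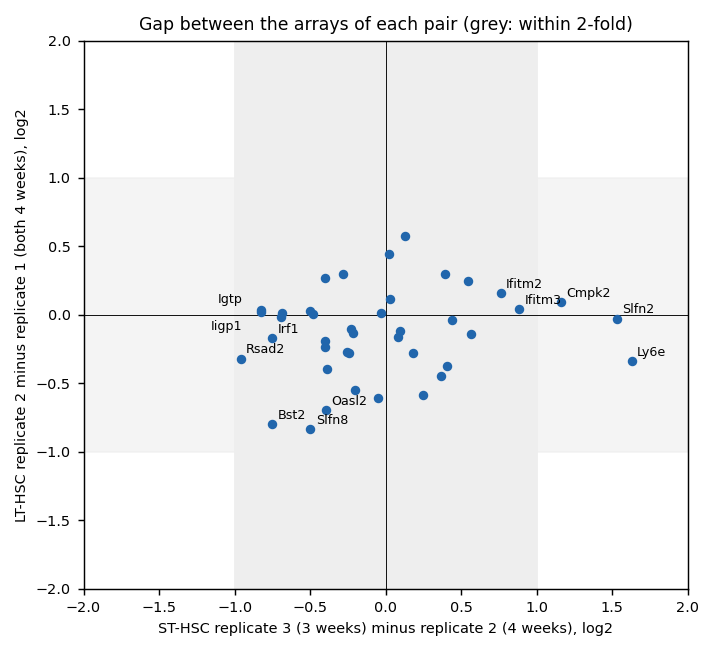
For each of the 41 tested interferon-stimulated genes, the gap between the ST-HSC arrays (3 weeks minus 4 weeks, log2, horizontal axis) against the gap between the LT-HSC arrays (replicate 2 minus replicate 1, log2, vertical axis). Grey bands mark gaps within 2-fold: Ly6e, Slfn2 and Cmpk2 lie beyond them on the horizontal axis, and no gene does on the vertical axis.

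The rest of the pathway was read from a list of 26 further genes, of which 25 had a probe set of their own and 20 could be tested. Of these 20, 1 was higher in LT-HSC and 1 was higher in ST-HSC, against 7.92% and 6.41% of all genes tested. The 5 interferon genes on the list (Ifnb1, Ifna2, Ifna4, Ifna11 and Ifng) were all below the filter, with Ifng at 29.6 and 25.8 on the LT-HSC arrays and 3.36 and 1.07 on the ST-HSC arrays. Both calls were receptor chains. Ifngr1, the ligand-binding chain for interferon gamma, read 106 and 162 on the LT-HSC arrays and 387 and 464 on the ST-HSC arrays, 2.98-fold above LT-HSC in ST-HSC (difference -1.58, SE 0.32, adjusted p = 0.0278 in limma). Ifnar2, a chain of the type I receptor, read 769.8 and 773 on the LT-HSC arrays and 258 and 397 on the ST-HSC arrays on its brightest probe set (1.23, SE 0.30, adjusted p = 0.0434 in limma). Its other 2 probe sets lay at -0.47 and -0.45 and did not pass, and the mean of the 3 differed by 0.10, so the direction of Ifnar2 depends on the probe set. Both calls were lost when LT-HSC replicate 1, or replicate 2 of that group, was left out. Ifnar1 (0.28, SE 0.35) and Ifngr2 (-0.54, SE 0.38) did not pass.

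Below the receptors, the kinase gene Tyk2 read 519.7 and 660.4 on the LT-HSC arrays and 278 and 99.7 on the ST-HSC arrays (1.71, SE 0.46, adjusted p = 0.0579 in limma), while Jak1 (-0.43) and Jak2 (0.17) lay closer to 0. Irf7, the factor that amplifies type I interferon production, read 85.0 and 104 against 61.4 and 83.0 (0.33, SE 0.32, adjusted p = 0.524). Among feedback inhibitors the phosphatase gene Ptpn1 had a 2.01-fold higher value in LT-HSC and did not pass (adjusted p = 0.0644 in limma). Its second probe set lay on the other side of 0, at -0.31, and the mean of both at 0.35. Socs3, which blocks receptor signalling, read 185 and 159 on the LT-HSC arrays and 324 and 61.2 on the ST-HSC arrays, so that the LT-HSC values lay between the 2 ST-HSC values. Irf5, a factor of myeloid and B cells, lay at 1.01 (SE 0.32, adjusted p = 0.0887).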

How the data were processed

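RNA of sorted cells was extracted in Trizol, then taken through 2 amplification rounds and biotin-labelled with an Affymetrix kit, per the labels' protocols. The deposited values are linear intensity values, 1 for each probe set on an array, and how they were summarised or scaled is not given in the sources used here. Array medians ran from 19.1 to 28.3, so log2(intensity + 16) values were computed here from the deposited intensities and quantile normalized. Normalised intensities in the text are these values returned to the linear scale.

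Control probe sets were left out, and probe sets with a mean above the 40th percentile (27022 of 45037) were tested with limma 3.58.1 in R 4.3.3 (lmFit and eBayes with an intensity trend, 2 residual and 4.84 prior degrees of freedom). Benjamini-Hochberg adjustment covered all of them, with a threshold of 0.05. An exact two-sided permutation test of 2 against 2 arrays cannot go below 0.33, so none was used. The number of arrays limits the precision. Genes were named through the platform annotation supplied, and promoter windows come from RefSeq (GRCm38.p6).

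The members and lists were chosen with earlier results of these data known. A further allele that all groups share is not reported here. Values on every array are given for members that passed with all 4 arrays or with 1 left out, for those more than 2-fold apart within ST-HSC, and for the largest difference of each functional group; Bst2, Herc6, Ifit1, Ifit3, Oas3, Parp9, Stat2, Irf9, Gbp2, Mx2, Cxcl10, Ifng, Irf7, Socs3, Irf5, Tyk2, Sdc1, Irf4 and S100a8 were added after their values were seen. In a simulation of LT-HSC against ST-HSC over 27022 probe sets, limma found 69.1% of 2702 that were changed 4-fold, and 4.75% of its calls were wrong; with 100 changed 2-fold and 100 changed 4-fold, 0% were recovered. The alternatives were other normalizations, pseudocounts of 4 and 64, filters, spread models and probe set rules, and each array left out with the same probe sets tested.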

Additional observations from a re-analysis of the deposited data

How the results depend on the processing

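With 2 arrays a group, calls of single genes depended most on which array was left out. The same was seen over all genes, and is not particular to interferon genes. Their calls in both directions became fewer without an LT-HSC array and more without an ST-HSC array. Over the 4 comparisons without 1 array, the members higher in LT-HSC numbered 0 to 11 and those higher in ST-HSC 0 to 7, and the pathway genes 0 to 8 and 0 to 4. Under the other 12 alternatives, members higher in LT-HSC numbered 6 with median centring and 5 with no normalization, instead of 3, and no other setting moved either member count by over 1.5 times. Pathway genes higher in LT-HSC numbered 3 with array quality weights, 2 with median centring, 2 with no normalization, 2 with the mean of probe sets per gene and 0 with no intensity trend (limma, 7 at an unadjusted p under 0.05), instead of 1. In the same order, those of all genes numbered 1098, 1176, 993, 1193 and 883, instead of 1016. Between the ST-HSC arrays, 1 member instead of 3 was more than 2-fold higher on replicate 3 with the mean of probe sets per gene, and 1, 1 and 2 members instead of 0 were lower with median centring, with no normalization and with a pseudocount of 4. Without ST-HSC replicate 3, Socs3 (-0.86) and Uba7 (-0.42) turned and passed (limma), and without ST-HSC replicate 2 they passed the other way (1.28 and 0.60), while neither passed with 4 arrays. The cause was not tested. Of 15 members with several tested probe sets, 5 (Cmpk2, Dtx3l, Gbp2, Ifi27 and Xaf1) had probe sets of opposite sign. No paired analysis was possible because the groups share only replicate number 2.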
